A study of Mus musculus with 6 samples.

Results

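The miRNAs miR-9, miR-124, miR-137, miR-138, miR-153 and miR-219, which are known from neurons and glia, were followed in the mouse aorta. They were taken by name, each as the single assay of that exact name, so that 6 of the 596 mouse miRNA assays of the deposited table were members and names ending in a star were not. Nerve fibres and their Schwann cells run in the outer layer of large arteries, while the cell bodies of the neurons lie elsewhere. The question was whether the 6 miRNAs were detected, at which level, and whether single wells stood apart.

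The aortas came from mice that all lacked apolipoprotein E (Apoe-/-) and all carried VE-Cadherin-CreERT2, a tamoxifen-inducible Cre recombinase under an endothelial promoter. In the 3 EC-Dicerflox mice both Dicer1 alleles were floxed (Dicer1flox/flox), and the 3 EC-DicerWT littermates had Dicer1WT/WT. All mice received tamoxifen on 5 days in a row (2 mg for each 20 g of weight). They were 6-8 weeks old when a high-fat diet with 21% crude fat and 0.15% cholesterol was begun, and the aortas were taken after 4 weeks of it. The labels call the mice male and the methods of the study call them female, and sex was not used here. Cre acts in endothelial cells, whereas the RNA was that of the whole aorta, so that Cre was not directed to nerves, glia or smooth muscle cells. In such samples, fewer cells of a type and less RNA per cell cannot be told apart.

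MiRNAs are short RNAs that guide Argonaute proteins to target mRNAs, mainly through the seed at their 5′ end. MiR-124 and miR-9 are abundant in the nervous system, where miR-124 is a mark of differentiated neurons and miR-9 is found in neural progenitors and neurons. MiR-137 and miR-138 act in neurons, miR-138 among others at dendritic spines. MiR-153 is a neuronal miRNA encoded in a gene of neurosecretory cells. MiR-219 promotes the maturation of oligodendrocytes, the myelinating glia of the brain.

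The mature sequences are shown because they tell the assays apart: the members are grouped as neural by where they are known, not by sequence. They are from RefSeq (GRCm38.p6), in which 5 of the 6 names matched. The table of CT values gives no strand (arm) of the hairpin, and the arm that the unstarred name usually stands for was taken. Capitals mark the seed, bases 2 to 8.
miR-9 (miR-9-5p): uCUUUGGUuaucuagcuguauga
miR-137 (miR-137-3p): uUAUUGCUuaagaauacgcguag
miR-138 (miR-138-5p): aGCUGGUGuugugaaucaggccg
miR-153 (miR-153-3p): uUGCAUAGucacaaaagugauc
miR-219 (miR-219a-5p): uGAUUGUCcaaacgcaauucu
No seed was shared among these 5, and each seed occurred under 1 of the 1679 mature names of the reference table. MiR-9 is encoded at 3 loci with the same mature sequence, chr3:88215613-88215635 (Mir9-1), chr7:79505279-79505301 (Mir9-3) and chr13:83738821-83738843 (Mir9-2), all on the plus strand and each inside a long noncoding RNA gene (Gm3764, Mir9-3hg and C130071C03Rik). MiR-138 has 2 loci on the plus strand, chr8:94324312-94324334 (Mir138-2), within the span of the nucleoporin gene Nup93, and chr9:122682898-122682920 (Mir138-1). MiR-219 has 2 loci on the minus strand, chr2:29845689-29845709 (Mir219a-2), within the span of Cercam, and chr17:34025052-34025072 (Mir219a-1). MiR-137 has 1 locus at chr3:118433901-118433923 (Mir137) and miR-153 has 1 locus at chr12:117250860-117250881 (Mir153), within the span of Ptprn2, which encodes a protein of secretory vesicles, both on the plus strand. An assay of the mature miRNA reads all loci of a member together.

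The deposited values are CT values, the PCR cycle at which an assay crosses the detection threshold: a higher CT means less RNA, 1 cycle stands for a factor of 2 at full amplification, and 40 is the value of a well with no signal. A delta CT is the CT minus the sample's own mean of U6 and snoRNA135, RNAs that serve as loading references. Over the 6 samples, 375 to 415 miRNAs were under a CT of 40, and EC-Dicerflox replicate 3, which had the fewest, also had the highest median CT (28.2, against 26.4 to 27.5 in the others). The plant miRNA on the cards, which has no target in mice, was at 40 in all but 1 of its 12 wells, which had a CT of 39.58, under the limit of 40 used here for detection. Endothelial miR-126-3p and miR-126-5p (mean CT of 18.2 and 21.9), smooth muscle miR-143 and miR-145 (17.4 and 14.8) and all 4 leukocyte miRNAs of the list used were detected in every aorta.

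Of the 6 neural miRNAs, 4 were under a CT of 40 in all 6 aortas (miR-9, miR-137, miR-138 and miR-219), miR-124 was under it in 3, and miR-153 in none. The 4 that were detected throughout were also all under a CT of 35. This share of 66.7% stands beside 58.7% (350) of the 596 mouse assays, 5 of 9 assays of the liver, gut and pancreas list and 6 of 7 of the epithelial list.

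**Figure D1:**
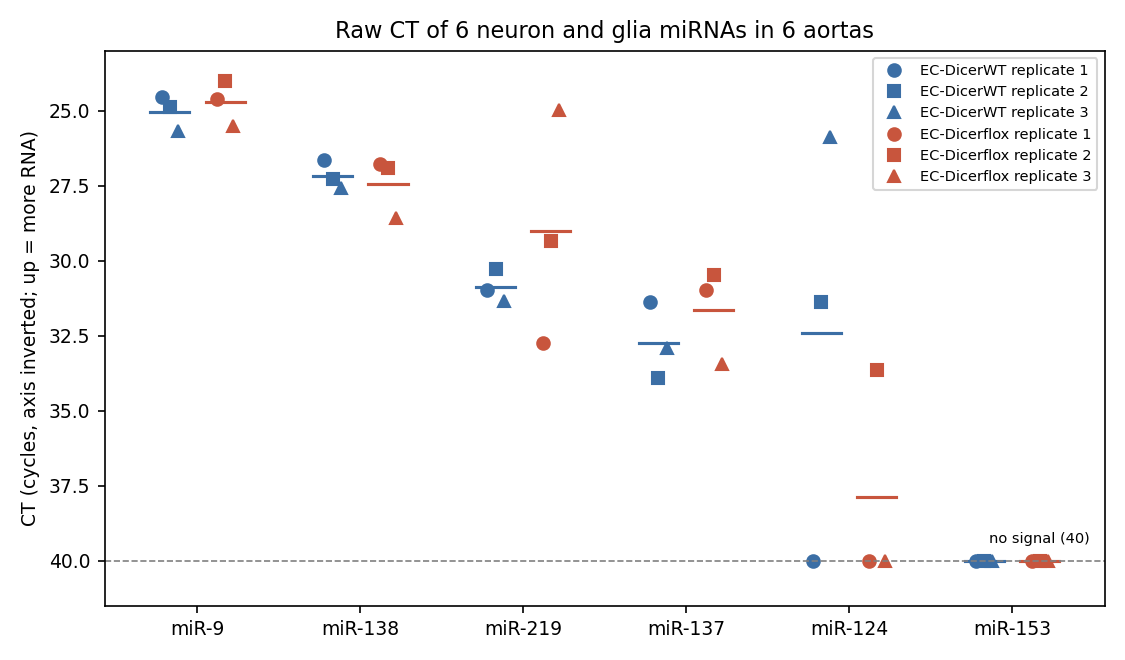
Raw CT (cycles, vertical axis inverted so that more RNA is higher) of the 6 neural miRNAs in the 3 EC-DicerWT (blue) and 3 EC-Dicerflox (red) aortas. Symbols give the replicate number, horizontal bars give the group means, and wells without a signal lie on the dashed line at 40. MiR-9 and miR-138 kept within 2 cycles, whereas miR-219 had 1 well at 25.0 and miR-124 had 1 well at 25.9, far from their other wells.

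MiR-9 was the most readily detected member. Its CT was 24.6, 24.9 and 25.7 in EC-DicerWT replicates 1, 2 and 3, and 24.6, 24.0 and 25.5 in EC-Dicerflox replicates 1, 2 and 3. All wells lay within 1.67 cycles, and the highest CT in each group was that of replicate 3. The range of its delta CT, 0.787 cycles, was close to the median range of 0.823 cycles of the 45 other miRNAs with a mean CT within 1 cycle of its own. Of the 350 miRNAs under 40 in all samples, 119 (34.0%) had a lower mean CT, so that miR-9 was in the upper part of what the aorta showed. As delta CT, miR-9 was 5.75, 5.95 and 6.06 in EC-DicerWT and 5.72, 5.30 and 5.28 in EC-Dicerflox mice. Every EC-Dicerflox value was below every EC-DicerWT value, by only 0.028 cycles between the nearest samples (replicate 1 of each group). The level was thus higher in EC-Dicerflox mice by a log2 fold change of 0.49 (standard error 0.26, 95% interval -0.17 to 1.14), and this did not pass the test (unadjusted limma p-value of 0.116, adjusted p-value of 0.923; two-sided exact permutation p of 0.1, which 3 samples against 3 cannot go below). The groups did not overlap for 1 of the 5 neural miRNAs tested, miR-9, and for 48 of all 461 miRNAs tested, or 10.4%. Among these 48 were the 2 endothelial assays miR-126-3p and miR-126-5p, read here as assays of the marker lists. Both were higher in each EC-Dicerflox sample than in every EC-DicerWT sample (log2 fold changes of 0.41 and 0.85, adjusted limma p-values over 0.05). Their lowest delta CT was in EC-Dicerflox replicate 2 (-1.58 and 1.64). Their part in the value of miR-9 was not tested.

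MiR-138 had the smallest range of delta CT of the members detected throughout, whereas in raw CT its range of 1.95 cycles was above that of miR-9. Its CT was 26.6, 27.3 and 27.6 in EC-DicerWT replicates 1, 2 and 3, and 26.8, 26.9 and 28.6 in EC-Dicerflox replicates 1, 2 and 3. The one higher CT belonged to EC-Dicerflox replicate 3, the sample with the highest median CT, and the delta CT values of both groups overlapped, from 7.83 to 8.35 in EC-DicerWT and from 7.89 to 8.36 in EC-Dicerflox mice. The range of delta CT, 0.538 cycles, was exceeded by 323 of the 350 miRNAs detected throughout (92.3%). The log2 fold change was -0.11 (standard error 0.28, 95% interval -0.82 to 0.60; unadjusted limma p-value of 0.704; two-sided exact permutation p of 0.7). MiR-138 lay in the middle of the detected miRNAs, with 176 of 350 (50.3%) at a lower mean CT.

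The strand partner miR-138*, the only 1 of 8 partner names looked for that was found in the table, comes from the other arm of a miR-138 hairpin. Its CT was 31.1, 36.3 and 31.0 in EC-DicerWT replicates 1, 2 and 3, and 33.0, 30.7 and 34.1 in EC-Dicerflox replicates 1, 2 and 3. The CT of miR-138* was thus higher than that of miR-138 in all 6 samples, by 3.40 to 9.05 cycles, with EC-DicerWT replicate 2 at the largest difference. The excess came to 5.16 ± 1.30 cycles (SD, n = 3) in EC-Dicerflox and to 5.65 ± 3.00 cycles (SD, n = 3) in EC-DicerWT mice (two-sided exact permutation p of 0.9). The 2 assays are on different cards of the set, as the style of their assay numbers shows, and differ in efficiency by an unknown amount.

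MiR-137 was near the lower end of the miRNAs seen in every aorta, with 317 of 350 (90.6%) at a lower mean CT. Its CT was 31.4, 33.9 and 32.9 in EC-DicerWT replicates 1, 2 and 3, and 31.0, 30.5 and 33.4 in EC-Dicerflox replicates 1, 2 and 3. The groups overlapped, and the lowest level was in EC-DicerWT replicate 2. The log2 fold change was 1.25 (standard error 0.76, 95% interval -0.67 to 3.17; unadjusted limma p-value of 0.158; two-sided exact permutation p of 0.2), and 0.56 without EC-DicerWT replicate 2. Its delta CT ranged over 3.21 cycles, close to the median range of 3.07 cycles of the 39 other miRNAs whose mean CT was within 1 cycle of its own, so that this spread was usual for the level.

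**Figure D2:**
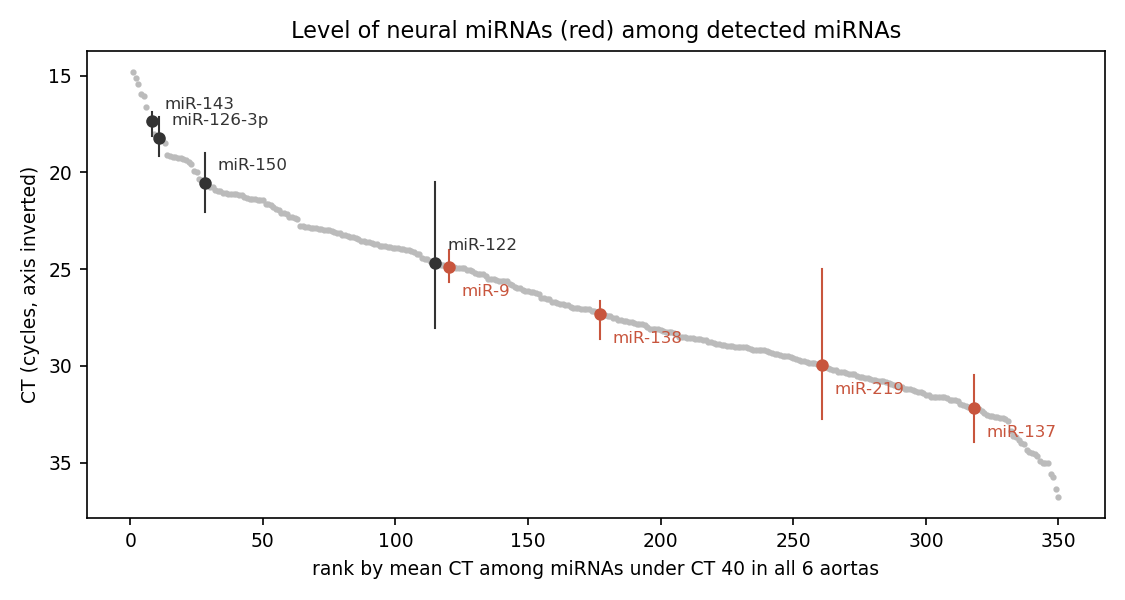
Mean CT (cycles, axis inverted) of the 350 miRNAs under a CT of 40 in all 6 aortas, in order of their mean CT. Red points are the 4 neural miRNAs detected throughout, black points are miR-143 (smooth muscle), miR-126-3p (endothelium), miR-150 (leukocytes) and miR-122 (liver) for orientation, and vertical lines run from the lowest to the highest of the 6 samples. MiR-9 has 119 miRNAs before it and miR-137 has 317, and the line of miR-219 is the longest of the red ones.

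Ordered by mean CT over the 6 samples, the members ran from miR-9 (24.9) over miR-138 (27.3), miR-219 (29.9), miR-137 (32.2) and miR-124 (35.1, with wells at 40 counted as such) to miR-153 (at 40). Of the neighbours in this order, only miR-9 and miR-138 had separate ranges, with a mean difference of 2.42 cycles and the same order in 6 of 6 samples. The ranges of the other neighbours overlapped: miR-138 was ahead of miR-219 in 5 of 6 samples, and miR-219 ahead of miR-137 in 5 of 6. CT values of different assays also hold the efficiency of each assay and of its pre-amplification, so that this order describes the assays and is not a measure of copies.

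Among the 4 members detected throughout, only miR-219 had a well at least 3 cycles from all others. Its CT was 31.0, 30.3 and 31.4 in EC-DicerWT replicates 1, 2 and 3, and 32.7, 29.4 and 25.0 in EC-Dicerflox replicates 1, 2 and 3. The last well was the lowest of all, although EC-Dicerflox replicate 3 was the sample with the highest median CT. As delta CT it was 4.75 in that sample, against 10.7 to 13.8 in the other 5, a gap of 5.90 cycles to the nearest, which stands for 59.7-fold if amplification is complete. Within EC-Dicerflox replicate 3, miR-219 was ahead of miR-9: 102 of 375 detected miRNAs (27.2%) had a lower CT than miR-219 and 110 had a lower CT than miR-9. In the other 5 samples, 63.9% to 84.9% of the detected miRNAs had a lower CT than miR-219.

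Such a single low well was rare among the miRNAs detected throughout. A gap of at least 3 cycles below the other 5 samples was found for 3 of 350 (0.857%): miR-219 with the largest gap, then miR-741 (5.55 cycles) and miR-694 (3.15 cycles), both of the latter in EC-DicerWT replicate 3. These 2 were named after their values had been seen. A well apart on the other side, at a high CT, was found for 11 of the 350, 6 of them in EC-Dicerflox replicate 3, and for none of the neural miRNAs. The range of miR-219, 9.09 cycles of delta CT, was exceeded only by miR-741 (13.2) and miR-211 (11.3), the latter also named after its value had been seen, and by none of the 62 other miRNAs with a mean CT within 1 cycle of its own, for which the median range was 1.90 cycles.

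The well decided the comparison of the groups for miR-219. With all samples, its log2 fold change was 2.00 (standard error 2.33, 95% interval -3.88 to 7.89; unadjusted limma p-value of 0.427; two-sided exact permutation p of 0.7). Without EC-Dicerflox replicate 3 it was -0.49 (unadjusted limma p-value of 0.661), from a mean delta CT of 12.2 in the 2 other EC-Dicerflox samples and of 11.8 in EC-DicerWT mice. Without EC-Dicerflox replicate 1 it was 4.05 (unadjusted limma p-value of 0.0891). The EC-DicerWT samples lay within 1.06 cycles of CT and the EC-Dicerflox samples within 7.75.

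**Figure D3:**
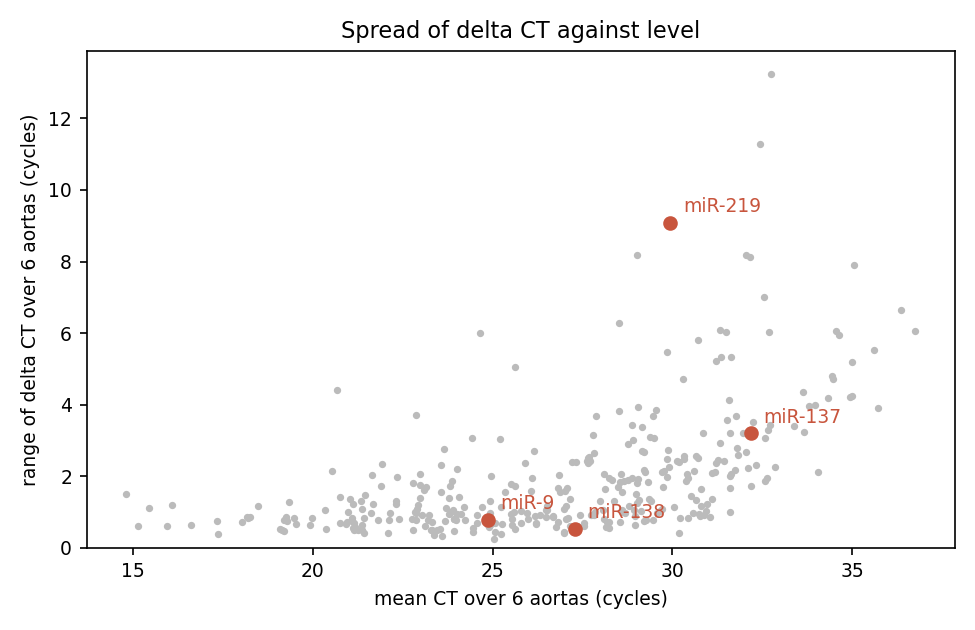
Range of delta CT over the 6 aortas (cycles, highest minus lowest sample) against the mean CT (cycles) of each of the 350 miRNAs under a CT of 40 in all samples, with the 4 neural miRNAs in red. MiR-138 (0.538 cycles) lies at the bottom, miR-9 (0.787 cycles) and miR-137 (3.21 cycles) lie among assays of their level, and miR-219 (9.09 cycles) lies below only 2 other assays.

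MiR-124 was the least regular member. It had no signal in EC-DicerWT replicate 1 and in EC-Dicerflox replicates 1 and 3, and a CT of 31.4, 25.9 and 33.6 in EC-DicerWT replicate 2, EC-DicerWT replicate 3 and EC-Dicerflox replicate 2. The signal was present in 2 of 3 EC-DicerWT and 1 of 3 EC-Dicerflox samples, and both groups had wells at 40. In EC-DicerWT replicate 3 the delta CT of 6.26 was close to the 6.06 of miR-9 in the same sample, and 33.7% of the miRNAs detected there had a lower CT. That well was 6.18 cycles below the next, that of EC-DicerWT replicate 2. With wells at 40 kept as such, the fitted log2 fold change was -5.32 (standard error 4.10, 95% interval -15.7 to 5.05; unadjusted limma p-value of 0.249; two-sided exact permutation p of 0.4), a value that depends on the limit of 40. It was -3.65 with CT values above 35 set to 35, -1.80 without EC-DicerWT replicate 3, and -9.26 without EC-DicerWT replicate 1, where the unadjusted limma p-value was 0.0264 and the adjusted p-value 0.955.

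Of the 111 miRNAs detected in some but not all samples, 5 had a well at or below the lowest CT of miR-124. Besides miR-124 these were miR-546 (24.2 in EC-DicerWT replicate 3, detected in 3 samples), miR-452 (22.4 in EC-DicerWT replicate 3), miR-450b-5p (19.9 in EC-Dicerflox replicate 3) and miR-590-5p (16.7 in EC-DicerWT replicate 1), the last 3 each detected in 5 samples. They were named after their values had been seen. Wells of replicate 3 of either group made up 4 of these 5, that of miR-124 included. For the 3 detected in 5 samples, the distance of the lowest well from the others was not examined. Single wells under 40 did not gather in replicate 3. Of the 29 mouse assays with only 1 such well, 4 had it in EC-DicerWT replicate 3, 3 in EC-Dicerflox replicate 3 and 9 in EC-Dicerflox replicate 2. The only member with a low well among the miRNAs detected throughout, miR-219, had it in EC-Dicerflox replicate 3.

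The other neural miRNAs were read in the samples that held the low wells of miR-219 and miR-124. In EC-Dicerflox replicate 3, where miR-219 was lowest, miR-137 was at 13.2, within its range, and miR-124 had no signal. MiR-138 had its highest delta CT there (8.36), but only 0.016 cycles above EC-DicerWT replicate 2. MiR-9 had its lowest delta CT there (5.28), but only 0.026 cycles below EC-Dicerflox replicate 2. In EC-DicerWT replicate 3, where miR-124 was lowest, miR-9 had its highest delta CT of the 6 samples (6.06) and miR-138 (7.96), miR-219 (11.7) and miR-137 (13.3) were within the range of the other samples. The strand partner miR-138* had its lowest delta CT there (11.4, next 11.9). Of the 12 assays of further neural miRNAs that were under 40 in all samples, 0 had their lowest delta CT in EC-Dicerflox replicate 3 and 2 had it in EC-DicerWT replicate 3. The median deviation of these 12 assays from their own means was 0.22 cycles and 0.29 cycles in these samples, toward less RNA. Of the 7 neuronal assays detected in only some samples, as miR-124 was, 4 had their lowest delta CT in EC-DicerWT replicate 3 and 0 had it in EC-Dicerflox replicate 3. The 4 were miR-383 (11.1, next 13.0), miR-873 (13.6, next 14.98), miR-129-5p (12.8, next 12.9) and miR-326 (18.3, at a CT of 37.9, under 40 in that sample only). They were named after their values had been seen. How many of all 111 miRNAs detected in only some samples had their lowest delta CT in EC-DicerWT replicate 3 was not counted. The 4 of 7 are therefore not read as a trait of neuronal assays. Whether the 4 share a source with the well of miR-124 was not tested.

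MiR-153 was at 40 in all 6 wells, as were 135 of the 596 mouse assays (22.7%). It was not tested, and its level could be anywhere below what a CT of 40 detects.

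No neural miRNA passed the test between the groups. Of the 5 tested, 0 had an adjusted limma p-value under 0.05 and 0 had an unadjusted one under 0.05, and over all 461 miRNAs these shares were 0% and 3.04% (14 miRNAs). The estimates were higher in EC-Dicerflox mice for miR-9, miR-137 and miR-219 and lower for miR-124 and miR-138, and their median was 0.49, beside 0.082 over the 461. With 5 values of which 2 turn on single wells, this median describes the estimates only.

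**Figure D4:**
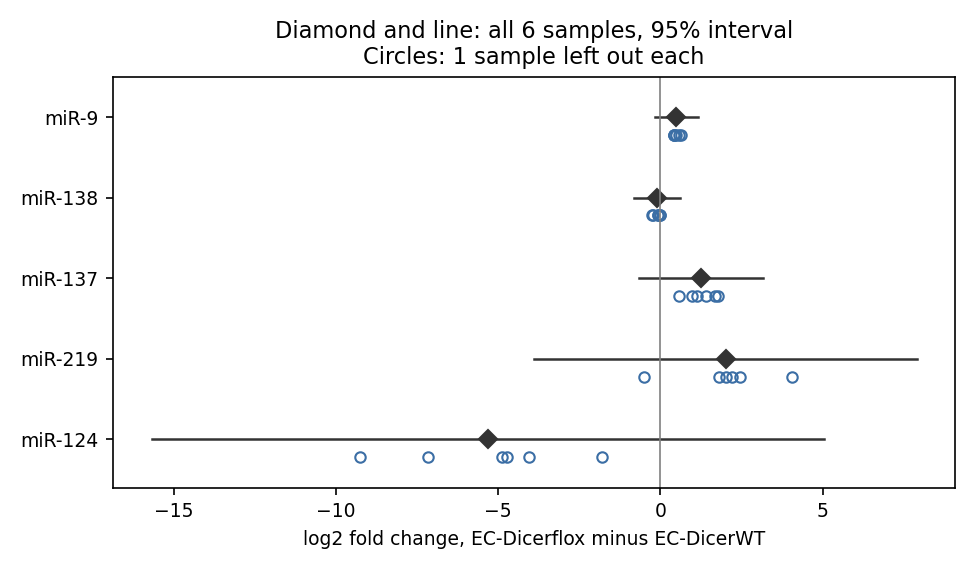
Log2 fold change (EC-Dicerflox minus EC-DicerWT, horizontal axis) of the 5 neural miRNAs tested. Diamonds and lines give the limma estimate from all 6 samples and its 95% interval, and open circles give the 6 estimates that each leave out 1 sample. The interval of each miRNA includes 0, and miR-219 changes sign when EC-Dicerflox replicate 3 is left out (-0.49).

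Further miRNAs known from neurons and glia were read from a list of names. Of 24 neuronal names, 20 were in the table with 21 assays, of which 11 were under 40 in all samples, 7 in some and 3 in none. The glial miR-338-3p, an miRNA of myelinating cells, was under 40 in all samples, with a mean CT of 30.8. The neuronal assays with a mean CT under 30 were the activity-regulated pair miR-132 (23.9) and miR-212 (25.2), miR-218 (23.2), an miRNA of motor neurons, miR-134 (26.1), which acts at dendrites, and miR-128a (28.6), miR-323-3p (29.1), miR-129-3p (29.2), miR-330 (29.5) and miR-384-5p (29.9). Several of these are known from other tissues as well, and miR-218 is encoded within the Slit genes. For miR-330 the second assay of that name, on the other card, was under 40 in only 2 samples, so that the 2 assays differed in detection. Whether they read the same arm of the hairpin was not checked.

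Between the groups, 0 of the 19 further neural assays tested had an unadjusted limma p-value under 0.05. The estimates of the 18 neuronal ones were lower in EC-Dicerflox mice in 13 and higher in 5, with a median log2 fold change of -0.50, beside 210 lower and 251 higher and a median of 0.082 over the 461. All 7 assays with wells at 40 in some samples were among the 13, and the 11 under 40 in every sample had 6 lower and 5 higher estimates with a median of -0.037. The split was not taken for all miRNAs detected in only some samples, so that 7 of 7 is not read as a trait of neuronal miRNAs. Of the 20 mouse assays with only 1 well at 40, 11 had it in EC-Dicerflox replicate 3. The part of that sample in the 7 estimates was not tested. The estimate of miR-338-3p was higher (0.68, unadjusted limma p-value of 0.147). MiR-323-3p and miR-129-3p were lower in each EC-Dicerflox sample than in every EC-DicerWT sample, with log2 fold changes of -0.58 and -1.16 (unadjusted limma p-values of 0.0979 and 0.139). These 2 of 19 assays, or 10.5%, stand beside the 10.4% of all miRNAs tested whose groups did not overlap, a share at the background. MiR-384-3p had the smallest unadjusted p-value of the list, 0.058, with signal in 2 EC-DicerWT samples (34.6 and 34.5) and 40 elsewhere.

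The miRNAs whose delta CT varied over the 6 samples most like that of a member were sought by the root mean square difference between their deviations from their own means, among the 350 detected throughout. For miR-9 these were miR-30b (0.0831 cycles) and miR-29b (0.119 cycles), where the median over all miRNAs was 0.519. For miR-138 they were miR-224 (0.107 cycles) and miR-410 (0.131 cycles), against a median of 0.487. For miR-137 they were miR-701 (0.493 cycles) and miR-2135 (0.502 cycles), against a median of 1.09. For miR-219 they were miR-100 (1.70 cycles) and miR-200b (2.27 cycles), against a median of 2.93. No member was among the nearest 2 of another. The closest pair of members was miR-9 and miR-138 (0.436 cycles), and the pairs with miR-219 were 2.68 to 3.21 cycles apart.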

How the data were processed

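Total RNA of 6 aortas was reverse-transcribed and pre-amplified with rodent Megaplex pools and run on TaqMan microRNA cards, per the methods of the study. The authors deposited raw CT values (entered here as a score), which are not normalized, with 40 as the detection limit. How threshold and baseline were set is not given in the sources used here. Columns were assigned to samples by name, with 0 sample columns not used.

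Delta CT was the CT minus the mean of U6 and snoRNA135 (4 wells per sample, both cards). The group comparison used limma 3.58.1 (R 4.3.3; prior of 1.31 degrees of freedom) and Benjamini-Hochberg adjustment over the 461 miRNAs that 1 or more samples showed below a CT of 40, and single miRNAs by two-sided exact permutation (20 arrangements). The fit was tested on simulated data. The spread is that between samples, described in the labels as biological replicates, and their number limits the precision. Among miRNAs under 40 in all samples, a well stood apart where its gap to the nearest of the other 5 was at least 3 cycles.

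The members, lists and alternatives were chosen with earlier results of these data known. Named were all members, their strand partners, the listed neural miRNAs (values where the mean CT was under 30 or the unadjusted p-value under 0.05) and the 2 miRNAs most like each member detected throughout. Other miRNAs given with values (the marker lists, miR-338-3p as the 1 glial assay found, miR-384-3p, the second miR-330 assay and those past the adjusted threshold without 1 sample) lie outside this rule, as do those marked in the text.

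Deviations from the group means correlated between samples of the same replicate number (0.150, 0.224 and 0.431 for numbers 1, 2 and 3, over 350 miRNAs), so that the replicate number was also used as a block, although numbers 1 and 2 also correlated across each other (0.285 and 0.117). Neither the labels nor the methods say what a number marks. The cards were told apart by the style of the assay numbers, and all 6 members were on the same card.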

Additional observations from a re-analysis of the deposited data

How the results depend on the processing

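The log2 fold changes of miR-9, miR-137 and miR-138 kept their sign in all 18 alternatives and that of miR-124 in the 16 in which it was fitted. MiR-124 could not be fitted with wells at 40 left missing or with miRNAs under 40 in all samples only. That of miR-219 kept its sign in 17 of 18 and was -0.49 without EC-Dicerflox replicate 3. Leaving out 1 sample at a time gave 0.41 to 0.63 for miR-9, -9.26 to -1.80 for miR-124, 0.56 to 1.78 for miR-137, -0.26 to -0.0038 for miR-138 and -0.49 to 4.05 for miR-219. The 12 other alternatives gave 0.33 to 0.57 for miR-9, 1.09 to 1.33 for miR-137, -0.27 to -0.029 for miR-138 and 1.84 to 2.09 for miR-219. None of these fits gave a member an adjusted p-value under 0.05. An unadjusted p-value under 0.05 was reached by 1 member with the ordinary linear model (miR-9, 0.0462, over its other alternatives up to 0.255), which differs only in the estimate of the spread, and by 0 to 1 members without 1 sample (miR-124 without EC-DicerWT replicate 1). Over all miRNAs, 0 passed an adjusted p-value of 0.05 in the 12 alternatives with all samples, and 0 to 2 passed without 1 sample: miR-453 and miR-1938 without EC-Dicerflox replicate 1, and miR-804 without EC-Dicerflox replicate 3, all named after their values had been seen. The cause was not tested. With the replicate block, the unadjusted p-values were 0.186 for miR-9, 0.192 for miR-124, 0.208 for miR-137, 0.692 for miR-138 and 0.389 for miR-219, and the block changed no call. The number of members detected in every sample was 4 with either limit, a CT of 40 or 35. Among the members under 40 in every sample, 1 well stood apart with a gap of 3 or 2 cycles and with raw CT. Over the 350 miRNAs detected in every sample, the choice of reference moved the median log2 fold change from -0.058 with snoRNA202 alone to 0.19 with U6 alone, beside 0.10 in the reported setting.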
